A study of Mus musculus with 4 samples.

Results

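The T-cell receptor (TCR) V and J segments examined here are the 164 segment names that the TCR contig tables of 2 mice assign to alpha (TRAV, TRAJ) or beta (TRBV, TRBJ) chains, against 32285 genes in the matching gene expression matrices. They comprise 87 TRAV, 43 TRAJ, 22 TRBV and 12 TRBJ names. Every V or J name of a productive contig was taken, without regard to its level. One of the TRBV names is a joint entry, TRBV12-2+TRBV13-2, and the other 163 names each had a gene of the same name in the expression matrix. The pBIC mouse used 163 of the names and the pBIC10 mouse all 164, TRAV9D-4 being seen in 2 pBIC10 clonotypes alone.

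The series compares the spleen of 1 female mouse of genotype pBIC with that of 1 female mouse of genotype pBIC10, in a study of IL-10 from B cells in diffuse large B-cell lymphoma. For each mouse, GFP-positive lymphoma cells and GFP-negative cells were sorted alive and mixed at 20% and 80%, and a 10x 5' gene expression library and a TCR library were made from that suspension. The alleles behind the names pBIC and pBIC10, the age of the mice and any treatment are not given in the sources used here. With 1 mouse a genotype, genotype and mouse cannot be told apart and no test between mice was possible, so intervals are exact 95% binomial or Poisson intervals that cover counting error only. A segment was called different when its shares differed at least 1.5-fold and it had at least 20 clonotypes over both mice, which 59 TRAV, 43 TRAJ, 21 TRBV and 12 TRBJ names had.

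A TCR alpha chain is assembled in the thymus by joining 1 TRAV to 1 TRAJ segment, and a beta chain by joining TRBV, TRBD and TRBJ segments. Enzymes trim the ends and add random bases, so the joint, called complementarity-determining region 3 (CDR3), is nearly unique to each T cell and is inherited by its daughters. A clonotype is the set of cells that share their receptor. Use counted by clonotype therefore weighs each rearrangement once, while use counted by cell also carries how far each clone has grown.

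The joints below are CDR3 nucleotide sequences of the deposited contigs, read 5′ to 3′ from the conserved cysteine codon. The first set is shown because it marks invariant natural killer T cells, a lineage that joins TRAV11 to TRAJ18. It was found in 21 pBIC clonotypes as 4 sequences of 45 bases that encode 1 protein sequence. Capitals mark the base at which they differ.
TRAV11-TRAJ18 version 1: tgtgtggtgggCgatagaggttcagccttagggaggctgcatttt
TRAV11-TRAJ18 version 2: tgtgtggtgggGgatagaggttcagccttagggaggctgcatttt
TRAV11-TRAJ18 version 3: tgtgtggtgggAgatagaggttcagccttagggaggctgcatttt
TRAV11-TRAJ18 version 4: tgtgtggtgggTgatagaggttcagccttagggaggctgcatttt
These versions were held by 10, 8, 2 and 1 pBIC clonotypes, in that order. Version 1 was also the joint of the single pBIC10 clonotype with this pair.

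The second set comes from TRAV12-2, the segment whose clonotype share rose most from pBIC to pBIC10. The sequences are 36 bases long, encode the same protein sequence within each J segment, and differ at the capital letters.
TRAV12-2-TRAJ49 version 1: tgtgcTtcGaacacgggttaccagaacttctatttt
TRAV12-2-TRAJ49 version 2: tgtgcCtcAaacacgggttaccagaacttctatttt
TRAV12-2-TRAJ49 version 3: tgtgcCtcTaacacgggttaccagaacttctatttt
TRAV12-2-TRAJ49 version 4: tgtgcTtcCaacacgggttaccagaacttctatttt
TRAV12-2-TRAJ39 version 1: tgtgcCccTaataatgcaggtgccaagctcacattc
TRAV12-2-TRAJ39 version 2: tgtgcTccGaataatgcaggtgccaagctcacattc
TRAV12-2-TRAJ39 version 3: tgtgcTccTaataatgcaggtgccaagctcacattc
The TRAJ49 protein sequence was in 5 pBIC10 clonotypes with 6 distinct beta chains, and the TRAJ39 one in 4 clonotypes with 5 distinct beta chains. None of the 7 nucleotide sequences was found in a pBIC clonotype.

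The last set holds the largest clonotype of each mouse. Capitals mark the bases between the ends, where the ends are the runs of bases that match the commonest base of at least 80% of all chains with the same V or J segment.
pBIC beta, TRBV12-1 and TRBJ2-5: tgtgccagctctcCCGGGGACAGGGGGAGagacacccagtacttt
pBIC alpha, TRAV5N-4 and TRAJ16: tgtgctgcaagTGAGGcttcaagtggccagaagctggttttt
pBIC alpha, TRAV16N and TRAJ18: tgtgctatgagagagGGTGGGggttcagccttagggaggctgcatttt
pBIC10 beta, TRBV31 and TRBJ1-6: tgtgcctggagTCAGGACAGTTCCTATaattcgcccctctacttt
pBIC10 alpha, TRAV17 and TRAJ23: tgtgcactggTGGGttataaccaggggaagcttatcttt
The capital stretch was 16 bases in both beta chains and 4 to 6 bases in the alpha chains. The pBIC clonotype carried a pair of alpha chains, seen in 287 and 267 of its 336 cells.

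The TCR tables held 16835 contigs with a clonotype in 8300 barcodes for pBIC and 7542 in 3720 barcodes for pBIC10. The median contig had 8 and 7 unique molecular identifiers (UMIs) for alpha and 18 and 17 for beta chains. They formed 1990 clonotypes in pBIC and 1733 in pBIC10, of which 1713 and 1571 had an alpha chain and 1922 and 1701 a beta chain. Nearly all TCR-bearing barcodes had a UMI of Cd3d, Cd3e or Cd3g, components of the TCR complex (99.8% and 99.5%), against 51.7% and 35.98% of the other barcodes. Barcodes with more than 1 beta or more than 2 alpha chains, which can be doublets, made up 4.54% and 3.92%. The mice had 43 TCR barcodes in common, and none of them carried the same CDR3 in both mice. A clonotype as deposited can also be a fragment of another: 22.0% of beta-bearing pBIC clonotypes and 9.82% of pBIC10 ones held a beta chain also found in another clonotype of that mouse.

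TRBV use by clonotype was nearly the same in the mice. The joint entry TRBV12-2+TRBV13-2 led in pBIC with 9.47% of beta-bearing clonotypes (interval 8.20 to 10.9%, 182 clonotypes) and had 7.995% in pBIC10 (6.75 to 9.39%, 136 clonotypes). TRBV3 led in pBIC10 with 8.82% (7.51 to 10.3%) and had 8.17% in pBIC (6.98 to 9.48%). TRBV19 had 7.80% and 7.11%, TRBV13-1 had 7.28% and 7.58%, and TRBV12-1 had 6.35% and 7.70%. Neighbours in this order had overlapping intervals, while in pBIC the interval of the joint entry lay above that of TRBV12-1 (5.30 to 7.53%). Over all loci, 8 of 135 tested segments were called higher in pBIC10 (5.93%) and 14 higher in pBIC (10.4%). Of the 21 TRBV names, 1 was called (4.76%), and the intervals of the mice were apart for none (0.00%). The called segment was TRBV23, a rare segment with 17 pBIC clonotypes (0.884%, 0.516 to 1.41%) and 9 pBIC10 clonotypes (0.529%, 0.242 to 1.002%), and these intervals overlap. No TRBV was called with the top contig per cell and chain or with possible multiplets left out. TRBV14 had 4.94% in pBIC and 3.70% in pBIC10, and TRBV16 6.87% and 5.70%, both short of the fold. The share of clonotypes that would have to change segment to make the distributions of the mice equal was 5.95 points for TRBV.

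**Figure D1:**
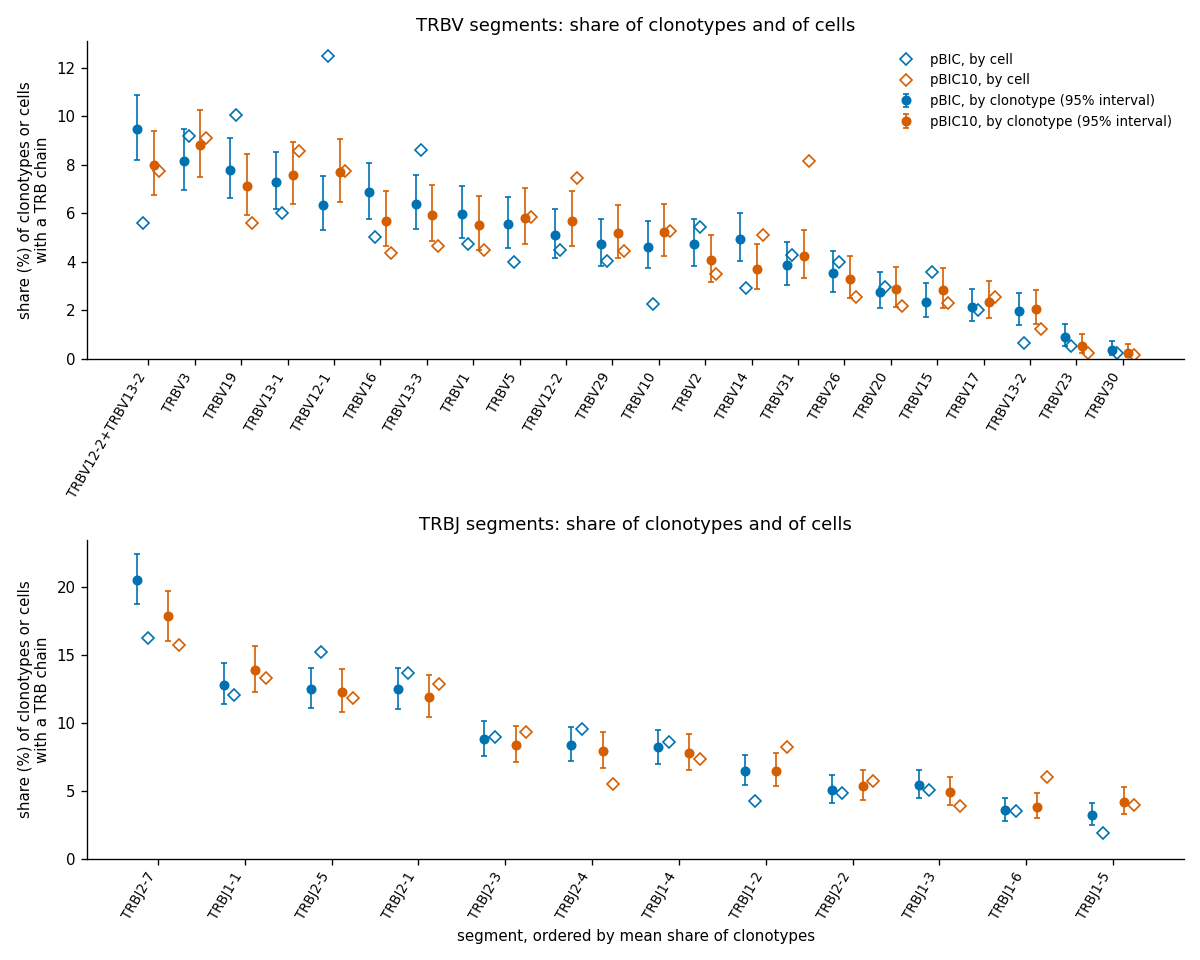
Share in percent of clonotypes (filled circles, bars are exact 95% binomial intervals) and of cells (open diamonds) with a beta chain that used each TRBV (top) and TRBJ (bottom) segment, for pBIC (blue) and pBIC10 (orange). The clonotype intervals of the mice overlap throughout, while cell shares stand away from them, as for TRBV12-1 at 12.5% of pBIC cells and TRBV31 at 8.14% of pBIC10 cells.

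For TRBJ the same measure was 3.37 points. It also depends on the number of names and clonotypes, and no value for equal use was computed, so it does not rank the loci. TRBJ2-7 was used by 20.5% of pBIC clonotypes (18.7 to 22.4%) and 17.8% of pBIC10 clonotypes (16.0 to 19.7%), and in each mouse its interval lay above those of all other TRBJ segments. TRBJ1-1 followed with 12.8% and 13.9%, TRBJ2-5 with 12.5% and 12.3%, and TRBJ2-1 with 12.4% and 11.9%. TRBJ1-5 showed the largest ratio between mice, 3.17% in pBIC and 4.17% in pBIC10, which is 1.32-fold and within overlapping intervals. None of 12 TRBJ segments was called (0.00%). The TRBJ segments lie in a pair of clusters, each behind its own TRBD segment and before its own constant gene, and the TRBJ2 cluster supplied 63.2% of pBIC chains (61.1 to 65.3%) and 60.9% of pBIC10 chains (58.6 to 63.2%).

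The D and constant gene calls of the same contigs, which did not enter the choice of segments, followed this arrangement. In all 8411 pBIC and all 3788 pBIC10 beta contigs with a constant gene call, the TRBJ cluster and the TRBC gene carried the same number. TRBD2 lies behind the TRBJ1 cluster and so cannot join it by deletion. A TRBJ1 segment was paired with TRBD2 in 1 of 541 pBIC contigs with that D call (0.185%) and in 1 of 199 pBIC10 contigs (0.503%). TRBD1, which precedes both clusters, was paired with TRBJ1 segments in 39.7% of 1362 pBIC contigs and 62.2% of 595 pBIC10 contigs. These are shares over cells' contigs and carry clone size.

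TRAV use differed between the mice by 17.3 points on that measure, spread over 86 names in pBIC and 87 in pBIC10. TRAV6D-6 led in pBIC with 5.31% of alpha-bearing clonotypes (4.30 to 6.48%, 91 clonotypes) and had 3.82% in pBIC10 (2.93 to 4.89%). TRAV12-2 led in pBIC10 with 9.61% (8.20 to 11.2%, 151 clonotypes), against 3.21% in pBIC (2.43 to 4.16%, 55 clonotypes), which is 2.99-fold higher. TRAV13-1 had 3.97% and 3.95%, and TRAV16N had 3.21% and 3.63%. Of the 59 TRAV names tested, 16 were called (27.1%), 10 of them higher in pBIC (16.9%) and 6 higher in pBIC10 (10.2%). The intervals of the mice were apart for 4 of the 59 (6.78%). These were TRAV12-2, TRAV3N-3 (2.63% in pBIC, 4.84% in pBIC10), TRAV9N-3 (1.34% and 2.93%) and TRAV11 (2.04% and 0.255%). Of these 4, TRAV12-2 alone was also read in the expression libraries, the other 3 names having at most 1 UMI of their own gene in the cells so called, as had TRAV6D-6.

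The lower end of the list held rare segments. TRAV7N-6 was used by 16 pBIC clonotypes (0.934%, 0.535 to 1.51%) and 5 pBIC10 clonotypes (0.318%, 0.103 to 0.741%). TRAV3-1 was used by 20 (1.17%, 0.715 to 1.80%) and 8 (0.509%, 0.220 to 1.0009%). Both were called higher in pBIC, by 2.93-fold and 2.29-fold, with overlapping intervals. The mouse TRAV locus carries near-identical copies of many segments, marked D or N in the names, and 45 of the 87 names were such copies, which contigs may not tell apart. When copies and members were merged into 19 TRAV subgroups, 2 subgroups stayed past the fold: TRAV11, a subgroup of 1 name here, and TRAV21, with 1.17% in pBIC and 0.700% in pBIC10. The TRAV12 subgroup then had 13.8% in pBIC (12.2 to 15.5%) and 19.8% in pBIC10 (17.9 to 21.9%), 1.44-fold, with intervals apart.

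**Figure D2:**
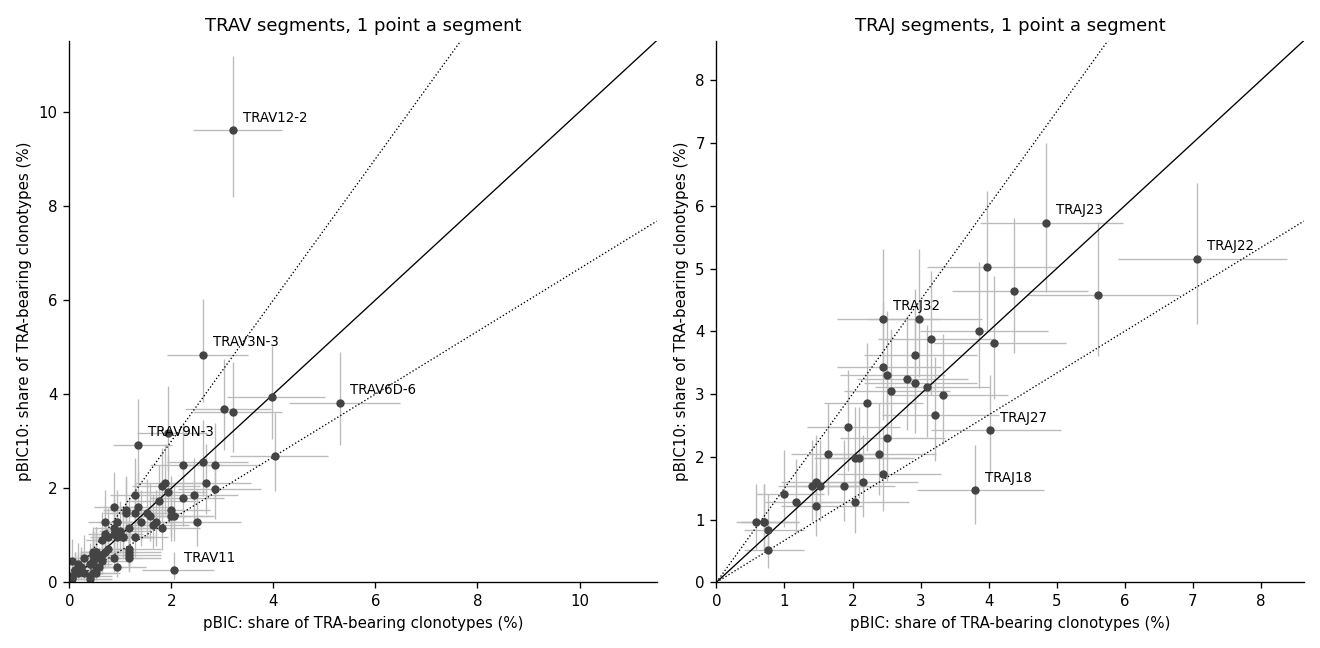
Share in percent of alpha-bearing clonotypes that used each TRAV (left) and TRAJ (right) segment in pBIC (x axis) and pBIC10 (y axis), 1 point a segment with exact 95% binomial intervals as grey bars. The solid line marks equal shares and the dotted lines 1.5-fold; TRAV12-2 stands at 3.21% and 9.61%, and TRAV11 and TRAJ18 lie below the lower dotted line.

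TRAJ use differed by 11.02 points. TRAJ22 led in pBIC with 7.06% (5.90 to 8.38%) and had 5.16% in pBIC10 (4.12 to 6.37%), where TRAJ23 led with 5.73% (4.63 to 7.00%) against 4.85% in pBIC. TRAJ31 had 5.60% and 4.58%, TRAJ26 had 4.38% and 4.65%, and TRAJ30 had 3.97% and 5.03%. All 43 TRAJ segments reached 20 clonotypes, and 5 were called (11.6%). TRAJ32 (2.45% in pBIC, 4.201% in pBIC10) and TRAJ35 (0.584% and 0.955%) were higher in pBIC10. TRAJ18 (3.79% and 1.46%), TRAJ27 (4.03% and 2.42%) and TRAJ44 (2.04% and 1.27%) were higher in pBIC. The intervals of the mice were apart for TRAJ18 alone (2.33%), 2.94 to 4.81% against 0.9303 to 2.19%.

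TRAV11 and TRAJ18, which had the largest fold toward pBIC among tested segments of their own locus, belong to the invariant natural killer T receptor, which recognises lipid presented by CD1d. The pair was found in 22 pBIC clonotypes of 25 cells (1.28% of alpha-bearing clonotypes, 0.807 to 1.94%) and in 1 pBIC10 clonotype of 1 cell (0.0637%, 0.00161 to 0.354%). In all, TRAV11 was in 35 pBIC and 4 pBIC10 clonotypes. TRAJ18 was in 66 pBIC and 24 pBIC10 chains, most of them joined to a TRAV other than TRAV11. How much the pair contributes to the shift of TRAJ18 between the mice was not tested. The 22 pBIC clonotypes with the pair had 22 distinct beta chains. Of these, 10 used the joint TRBV entry, 4 used TRBV29 and 2 used TRBV1, so that 16 of 22 (72.7%, 49.8 to 89.3%) used the beta segments known for this lineage, against 408 of the 1900 other beta-bearing pBIC clonotypes (21.5%, 19.6 to 23.4%). The only pBIC10 cell carried 2 beta chains and is among the barcodes that may be doublets. It had 0 UMIs of Cd3e.

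The 25 pBIC cells were then compared with the other TCR-bearing cells in the expression library, a readout the segments did not use. Zbtb16, which encodes the transcription factor PLZF of this lineage, was at 60.6 CPM (UMIs scaled to the total of the cells summed; Poisson interval 26.2 to 119) in them and at 0.521 CPM (0.372 to 0.709) in the 8261 others. Klrb1c, which encodes the receptor NK1.1, was at 356 CPM (262 to 473) against 5.60 CPM (5.08 to 6.16). Of the 25 cells, 17 fell in no gate for Cd8, Cd4 or Foxp3, 6 in the CD8 gate and 2 in the CD4 gate. The other invariant pair sought, TRAV1 with TRAJ33 of mucosal-associated invariant T cells, was in none of 1713 and none of 1571 clonotypes, which allows shares of up to 0.175% in pBIC and 0.191% in pBIC10.

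The TRAV12-2 clonotypes of pBIC10 were mostly single cells. They comprised 151 clonotypes of 325 cells, the largest of 73 cells, and 79.5% of them (72.1 to 85.6%) had 1 cell, against 70.5% (68.0 to 72.8%) of pBIC10 clonotypes with other TRAV. In pBIC, 41.8% of the 55 TRAV12-2 clonotypes had 1 cell (28.7 to 55.9%) and 57.2% of the others. Among pBIC10 clonotypes in a gate, 143 of 145 with TRAV12-2 were in the CD8 gate (98.6%, 95.1 to 99.8%), against 80.9% (78.7 to 83.0%) of those with other TRAV. In pBIC the CD8 gate held 78.4% (64.7 to 88.7%) and 77.6%, with no such gap. Of the pBIC10 TRAV12-2 clonotypes, 27 held a chain also found in another clonotype (17.9%), and the 148 with a beta chain had 151 distinct beta chains.

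The joints of these clonotypes were short. A CDR3 of 12 or fewer amino acids, counted with the first cysteine and the last phenylalanine or tryptophan, was found in 79 of 153 pBIC10 TRAV12-2 chains (51.6%, 43.4 to 59.8%), against 17.6% (15.8 to 19.5%) of the 1621 other chains. In pBIC the values were 33.9% of 56 chains (21.8 to 47.8%) and 18.6% (16.8 to 20.4%). Mean length was 12.8 ± 1.65 amino acids (SD over chains) for TRAV12-2 and 13.7 ± 1.40 for other TRAV in pBIC10, and 13.1 ± 1.43 and 13.7 ± 1.45 in pBIC. Other members of the TRAV12 subgroup in pBIC10 had 19.8% short joints (13.9 to 26.7%), below TRAV12-2, while in pBIC they had 28.02% (21.6 to 35.1%), with an interval overlapping that of TRAV12-2. These features were examined after TRAV12-2 had been seen to differ between the mice.

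**Figure D3:**
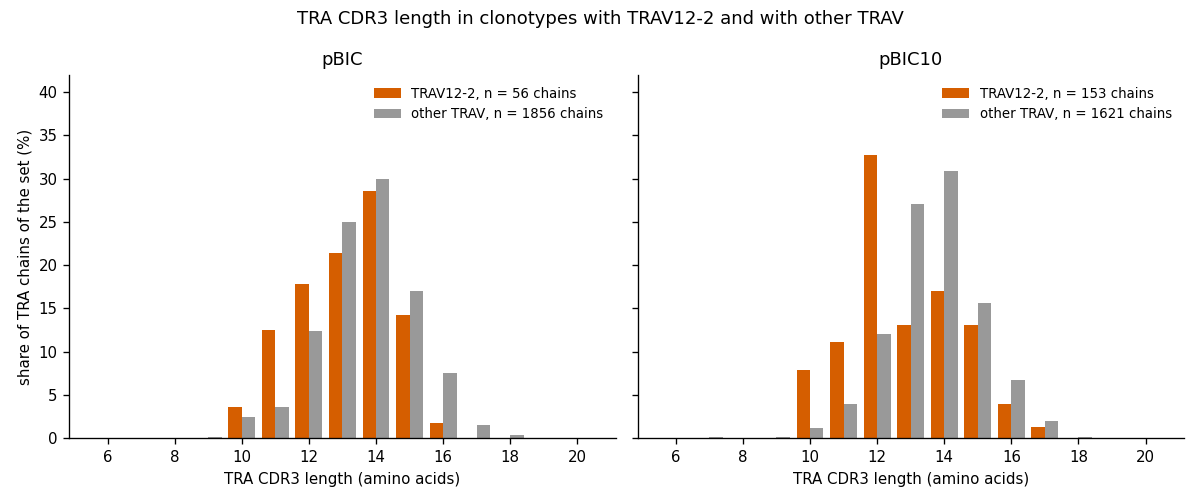
Distribution of alpha CDR3 length in amino acids (x axis) as share in percent of the chains of each set (y axis), for chains with TRAV12-2 (orange) and with any other TRAV (grey), in pBIC and pBIC10. In pBIC10 the orange bars peak at 12 amino acids, where 51.6% of chains have 12 or fewer, while the grey bars peak at 14 in both mice.

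J segment use of the TRAV12-2 clonotypes of pBIC10 differed from that of the others too. TRAJ39 was in 26 of 153 (17.0%, 11.4 to 23.9%), against 28 of 1621 other chains (1.73%, 1.15 to 2.49%). In pBIC, TRAJ39 was in 1 of 56 TRAV12-2 chains (1.79%, 0.0452 to 9.55%) and 2.21% of the others. TRBJ1-1 accompanied 49 of 148 pBIC10 TRAV12-2 clonotypes (33.1%, 25.6 to 41.3%), against 12.8% (11.1 to 14.6%) with other TRAV, and 13 of 55 in pBIC (23.6%, 13.2 to 37.0%), against 12.4%. The whole TRBJ1 cluster was in 66.2% of the pBIC10 TRAV12-2 clonotypes (58.0 to 73.8%) and 39.3% of the others, and in 56.4% (42.3 to 69.7%) and 38.8% in pBIC. The same alpha protein sequence recurred in at least 2 clonotypes for 14 pBIC10 TRAV12-2 CDR3s and for 0 in pBIC, over 153 and 56 chains. That is 10.9% of the distinct pBIC10 TRAV12-2 joints (6.06 to 17.5%), against 5.12% (4.07 to 6.35%) with other TRAV in pBIC10 and 7.78% (6.53 to 9.18%) in pBIC, with overlapping intervals. Of the 14, 8 had at least 2 nucleotide versions (6.20% of joints, 2.72 to 11.9%), against 11 of 1523 joints (0.722%, 0.361 to 1.29%) with other TRAV in pBIC10. The TRAJ49 and TRAJ39 sequences printed above were, with a TRAJ48 joint of 1 nucleotide version in 4 clonotypes, the most frequent of the 14.

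CD8-gate cells with TRAV12-2 were compared with other CD8-gate cells for 3 genes of naive T cells. In pBIC10, Ccr7, a homing receptor, was at 83.0 CPM (74.3 to 92.3) in 304 cells with TRAV12-2 and 62.2 CPM (59.4 to 65.1) in 2477 cells with other TRAV. A Ccr7 UMI was in 21.1% of the former and 18.2% of the latter, at median depths of 9764.5 and 8347 UMIs. Cells of the same clonotype are not independent, which the Poisson intervals do not cover. Lef1 (46.3 and 43.1 CPM) and Tcf7 (24.1 and 21.8 CPM), transcription factors of naive and memory cells, had overlapping intervals. None of these 3 genes differed by 1.5-fold. In pBIC, Ccr7 was at 8.78 CPM in 130 TRAV12-2 cells and 7.57 CPM in 5660 others.

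Clonotypes were next split by the coreceptor RNA of their cells. A cell was in the CD8 gate with a UMI of Cd8a or Cd8b1 and none of Cd4 or Foxp3, in the CD4 gate with Cd4 and none of the others, and in the Foxp3 gate with Foxp3, the gene of regulatory T cells. This put 1390, 337 and 34 pBIC clonotypes and 1310, 165 and 114 pBIC10 clonotypes in the CD8, CD4 and Foxp3 gates. The CD8 gate reads more than T cells in pBIC10: Cd79a-positive B-lineage barcodes without a clonotype (at least 5 Cd79a UMIs, median depth 22510 UMIs) had Cd8b1 at 363 CPM and Cd8a at 20.3 CPM, and 88.9% of them would fall in that gate, against 12.4% in pBIC, where Cd8b1 was at 13.9 CPM in them (median depth 14943). In TCR-bearing CD8-gate cells of pBIC10, Cd8a was at 454 CPM and Cd8b1 at 734 CPM (median depth 8068). With the CD8 gate taken from Cd8a alone, an alternative chosen after this was seen, 6 TRBV segments were called for the CD8 gate and 5 for the CD4 gate, against 6 and 4 with the rule used below.

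TRBV use differed between the gates in the same direction in both mice for several segments. Over all loci, 20 of 131 segments tested were higher in the CD8 gate in both mice (15.3%) and 18 in the CD4 gate (13.7%). Of 21 TRBV names, 6 were at least 1.5-fold higher in the CD8 gate in both mice (28.6%) and 4 in the CD4 gate (19.0%), and the intervals of the gates were apart in both mice for 3 (14.3%). TRBV12-1 had 7.65% of CD8-gate and 2.15% of CD4-gate clonotypes in pBIC, and 8.66% and 1.25% in pBIC10. TRBV12-2 had 6.24% and 1.84% in pBIC, and 6.49% and 1.25% in pBIC10. With 165 pBIC10 clonotypes in the CD4 gate, these low shares rest on few clonotypes. TRBV14 (6.09% and 1.23%, then 4.48% and 1.88%), TRBV29, TRBV13-1 and TRBV17 were the other 4 higher in the CD8 gate.

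The 4 segments higher in the CD4 gate were TRBV3, TRBV2, TRBV31 and TRBV13-2, and TRBV13-2 was no longer called when the joint entry was counted with it. TRBV3 had 12.9% of CD4-gate and 7.58% of CD8-gate clonotypes in pBIC, and 14.4% and 7.73% in pBIC10, with intervals apart in both mice. TRBV2 had 8.90% and 3.94% in pBIC, and 7.50% and 3.71% in pBIC10. TRBV31 had 6.75% and 2.90%, then 6.88% and 3.25%. TRBV20 had the steepest CD4 lean in pBIC, 7.36% against 1.63%, but 3.75% against 2.70% in pBIC10, below the fold.

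**Figure D4:**
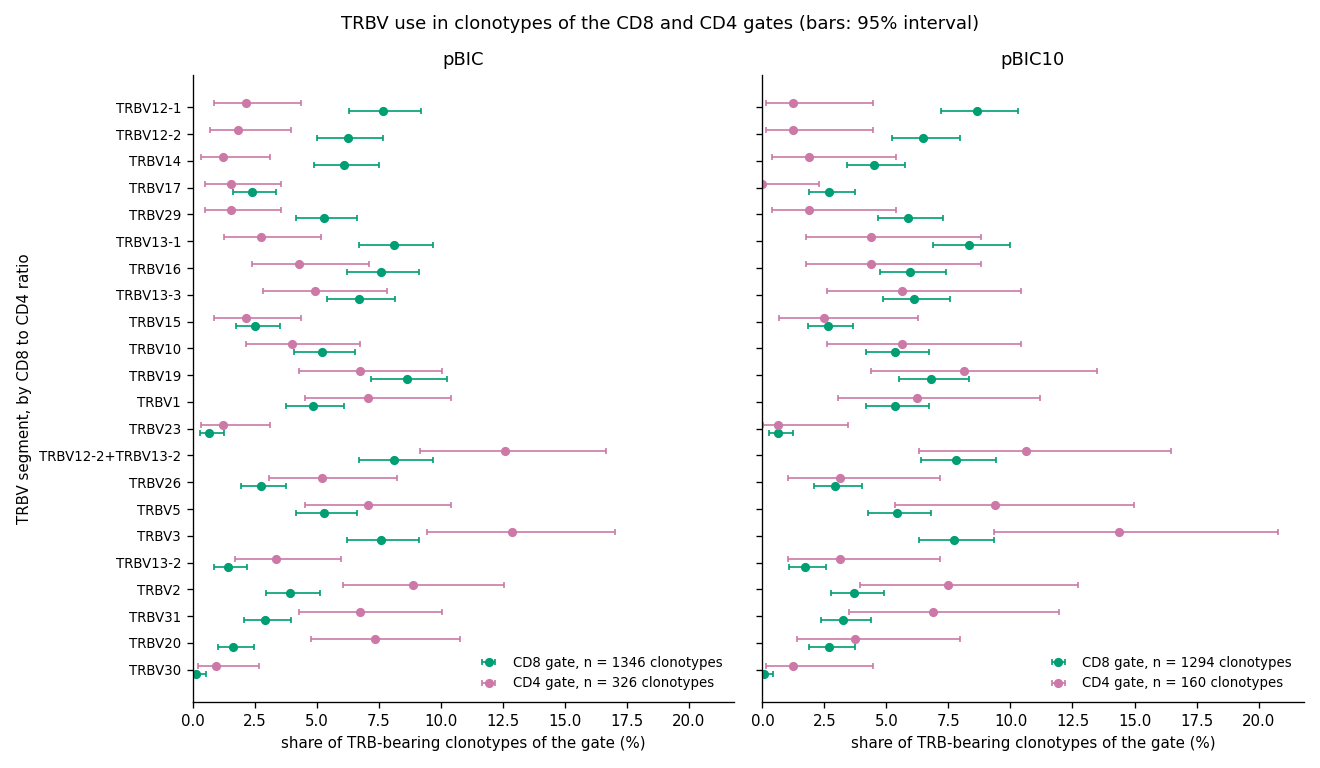
Share in percent of beta-bearing clonotypes of the CD8 gate (green) and the CD4 gate (pink) that used each TRBV segment, in pBIC (left) and pBIC10 (right), with exact 95% binomial intervals, ordered by the CD8 to CD4 ratio. TRBV12-1 and TRBV12-2 at the top lie to the right in the CD8 gate and TRBV3 lies to the right in the CD4 gate, with intervals apart in both mice.

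In the TRA locus, 10 of 55 TRAV names were higher in the CD8 gate (18.2%) and 11 in the CD4 gate (20.0%) in both mice, and 4 (9.30%) and 3 (6.98%) of 43 TRAJ. The gate intervals were apart in both mice for none of these (0.00% of TRAV and 0.00% of TRAJ). TRAV16N had 4.16% of CD8-gate and 0.958% of CD4-gate clonotypes in pBIC, and 3.99% and 2.03% in pBIC10. TRAV9N-3 had 1.75% and 0.639%, then 3.66% and 0.676%, with overlapping gate intervals in each mouse. The CD4 gate held 337 pBIC and 165 pBIC10 clonotypes, so its shares near or below 1% rest on few clonotypes. TRAV4N-4 leaned to the CD4 gate, with 4.47% against 1.08% in pBIC and 4.05% against 0.998% in pBIC10. TRAV14D-3-DV8 did so with 1.92% against 0.416%, then 4.05% against 0.333%. TRAJ37 was in 6.07% of CD4-gate and 1.83% of CD8-gate clonotypes in pBIC, and 4.05% and 2.24% in pBIC10, and TRAJ45 in 3.74% of CD8-gate against 1.92% of CD4-gate clonotypes, then 3.82% against 0%. No TRBJ segment was called in either direction (0.00%).

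The Foxp3 gate rested on 34 pBIC and 112 pBIC10 clonotypes with a beta chain, or fewer, and was mixed. Of its TCR-bearing cells, 40 of 64 in pBIC and 97 of 161 in pBIC10 also had a UMI of Cd8a or Cd8b1, and 29 and 60 had one of Cd4. TRBV12-1 was used by 11 of the pBIC10 Foxp3-gate clonotypes (9.82%), near its 8.66% in the CD8 gate and above its 1.25% in the CD4 gate. TRBV3 was also used by 11 (9.82%), between 7.73% and 14.4%.

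Counting cells in place of clonotypes moved the shares and drew the mice apart. The share that would have to change segment to make the mice equal rose from 17.3 to 34.8 points for TRAV, from 11.02 to 22.4 for TRAJ, from 5.95 to 19.5 for TRBV and from 3.37 to 10.7 for TRBJ. TRBV12-1 was used by 6.35% of pBIC clonotypes but 12.5% of cells (1019 of 8145), and by 8.77% of cells without its largest clonotype. TRBV31 was used by 4.23% of pBIC10 clonotypes and 8.14% of cells, or 5.16% without its largest clonotype. TRBV10 went the other way in pBIC, with 4.63% of clonotypes and 2.25% of cells, while in pBIC10 it had 5.23% and 5.27%.

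TRAV and TRAJ segments of the largest clones shifted further. TRAV5N-4 was in 0.876% of pBIC clonotypes and 4.74% of cells, 0.893% without its largest clonotype. TRAJ16 went from 1.46% to 4.80% (0.964% without). TRAV17 was in 0.637% of pBIC10 clonotypes and 4.06% of cells, 0.644% without its largest clonotype. TRAV3-1 rose from 1.17% to 3.96% in pBIC, and to 2.23% without its largest clonotype. TRAV11 had the lowest ratio of cell to clonotype share among pBIC TRAV segments with at least 20 clonotypes, with 2.04% of clonotypes and 0.677% of cells.

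The 3 largest clonotypes of each mouse were nearly all CD8-gate cells. In pBIC they had 336 cells (TRBV12-1 and TRBJ2-5), 239 cells (TRBV12-1 and TRBJ2-1, with TRAV9-4 and TRAJ33) and 135 cells (TRBV2 and TRBJ2-4, with TRAV3-1 and TRAJ15), of which 328, 236 and 134 were in the CD8 gate and none in the CD4 gate. In pBIC10 they had 116 cells (TRBV31 and TRBJ1-6), 73 cells (TRBV12-2 and TRBJ2-7, with TRAV12-2 and TRAJ40) and 63 cells (TRBV31 and TRBJ1-1, with TRAV13N-2 and TRAJ21), of which 113, 73 and 61 were in the CD8 gate. TRBV12-1 thus headed both of the largest pBIC clonotypes, with different J segments and joints, and TRBV31 headed 2 of the 3 in pBIC10.

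Clonotypes were divided into those of 1 cell, of 2 to 9 cells and of 10 or more. The last class had 169 clonotypes with 59.96% of cells in pBIC and 44 with 27.4% of cells in pBIC10. TRBV13-2, where it was called apart from the joint entry, was in 2.66% of the 1-cell pBIC clonotypes, 1.19% of those of 2 to 9 cells and none of the large ones, and in 2.49%, 0.969% and none in pBIC10. TRBV19 had 7.29%, 7.48% and 12.5% in pBIC, and 7.07%, 7.51% and 4.55% in pBIC10. Shares in the large classes, of 169 and 44 clonotypes, rest on few clonotypes, and differences between classes were not tested. TRBV12-1 had 5.66%, 7.31% and 7.74% in pBIC, and 7.15%, 9.44% and 6.82% in pBIC10. Of the 1-cell clonotypes, 21.2% in pBIC and 6.27% in pBIC10 held a chain found in a larger clonotype of the same mouse.

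The effective number of segments, the inverse Simpson index, counts how many equally used segments would give the observed evenness. By clonotype it was 53.0 TRAV in pBIC (50.4 to 55.9) and 42.004 in pBIC10 (38.8 to 45.8). For TRAJ it was 33.7 (32.3 to 35.1) and 34.2 (32.9 to 35.5), for TRBV 17.7 (17.2 to 18.3) and 17.8 (17.3 to 18.3), and for TRBJ 9.36 (9.002 to 9.74) and 9.76 (9.40 to 10.1). TRAV was thus the only locus of the 4 whose intervals lay apart between the mice. By cell the numbers were 43.2 (32.1 to 66.1) and 40.2 (33.4 to 50.4) for TRAV and 15.5 (13.1 to 19.0) and 16.8 (15.6 to 18.2) for TRBV, with overlapping intervals. The index for TRBV was lower in CD4-gate than in CD8-gate clonotypes, 14.6 (13.2 to 16.4) against 17.0 (16.5 to 17.6) in pBIC and 13.99 (12.1 to 16.5) against 17.5 (16.9 to 18.2) in pBIC10. It also tends to be lower in smaller sets, which these intervals do not cover. The CD4 and CD8 gates held 337 and 1390 clonotypes in pBIC, and 165 and 1310 in pBIC10. Sets of equal size were not compared, so what set size contributes was not tested.

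CDR3 length had the same centre in both mice and was set in part by the segments. Mean alpha length was 13.65 ± 1.45 amino acids in pBIC (SD, n = 1912 chains) and 13.59 ± 1.44 in pBIC10 (n = 1774), and mean beta length 13.89 ± 1.42 (n = 2095) and 13.95 ± 1.41 (n = 1795). Among TRBJ segments, TRBJ2-7 had the shortest beta joints in both mice, 13.18 and 13.22, and TRBJ2-3 the longest, 14.76 and 14.73. Among TRBV names with at least 20 chains in each mouse, TRBV20 was shortest at 13.08 and 12.92 and TRBV2 longest at 14.90 and 14.62. TRAV16 joints were 15.49 and 15.46 amino acids long, and those of TRAJ31 12.06 and 12.22. Beta joints were 0.296 amino acids longer in the CD8 than in the CD4 gate in pBIC (0.137 to 0.455, normal interval over chains), and 0.0812 longer in pBIC10, where the interval of -0.130 to 0.292 includes 0. The frequency classes had overlapping intervals of mean beta length in both mice, from 13.87 in 1-cell to 13.95 in large pBIC clonotypes and from 13.94 to 14.20 in pBIC10.

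Along the TRA locus, TRAV segments near the TRAJ region used near TRAJ segments more often, and far ones less often, than the other TRAV did. The order was taken from the RefSeq annotation of GRCm38.p6, in which all 1912 pBIC and 1774 pBIC10 alpha chains had both segments, and which was used for the order alone because the deposited files name another build. The correlation between the place of the TRAV and that of the TRAJ was -0.388 (Pearson) and -0.459 (Spearman) in pBIC, and -0.365 and -0.437 in pBIC10, across chains that share segments and libraries. Among chains with a TRAV from the nearest of 3 equal stretches of the locus, 44.0% in pBIC (40.6 to 47.3%) and 40.1% in pBIC10 (36.8 to 43.5%) used a TRAJ of the nearest stretch, and 43.0% and 47.1% one of the middle stretch. With a TRAV of the middle stretch, the nearest TRAJ had 12.5% and 11.4%, and with one of the farthest 14.2% and 16.0%. The farthest stretch of TRAJ was used by 13.0% and 12.8% of chains with a near TRAV, by 41.5% and 44.8% of those with a middle one and by 35.4% and 37.3% of those with a far one, so its use did not increase steadily with distance. The place of a TRAV rests on its name, and 45 of the 87 names were D or N copies that contigs may not tell apart. What misnamed copies would change in these shares was not tested.

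**Figure D5:**
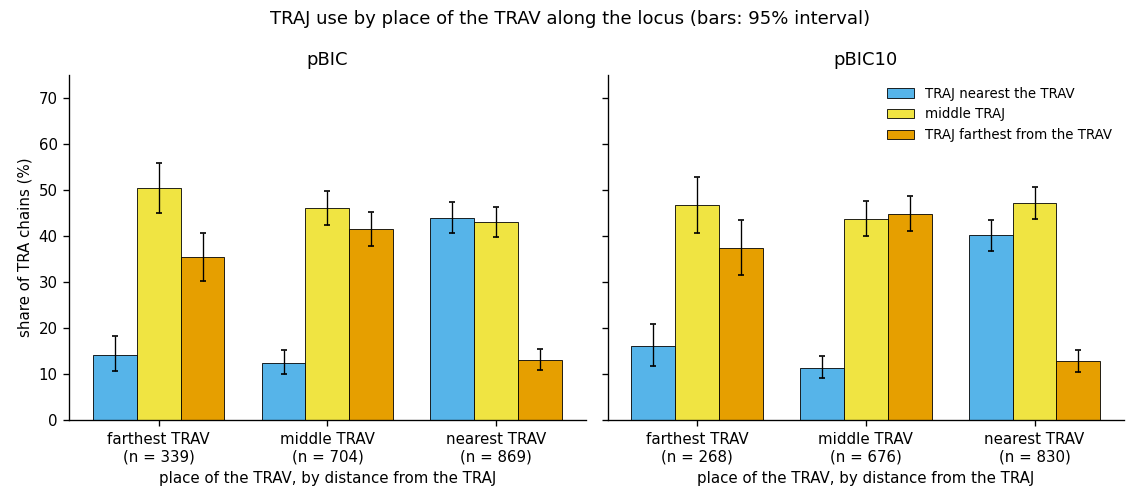
Share in percent of alpha chains that used a TRAJ of the nearest (blue), middle (yellow) or farthest (orange) stretch of the locus, by the stretch in which their TRAV lies, in pBIC and pBIC10, with exact 95% binomial intervals. Chains with a near TRAV used near TRAJ in 44.0% and 40.1%, against 11.4% to 16.0% for the other TRAV.

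The expression libraries gave a second reading of the V segments. In cells with 1 beta chain, the TRBV gene with most UMIs was the one called in the TCR library in 91.5% of 7578 pBIC cells (90.9 to 92.2%) and 85.9% of 3373 pBIC10 cells (84.7 to 87.1%). For TRAV it was 76.8% of 5047 cells (75.6 to 78.0%) and 83.8% of 2225 cells (82.2 to 85.3%), and 88.2% and 96.4% where the leading gene had at least 3 UMIs. The TRAV mismatches lay largely in names without reads of their own gene: 20 of 85 names in pBIC and 24 of 84 in pBIC10 had at most 1 UMI of that gene in all cells so called. TRAV6D-6 was matched in 0 of 157 pBIC cells and 0 of 22 pBIC10 cells, TRAV3N-3 in 0 of 82 and 0 of 39, and TRAV9N-3 in 0 of 21 and 0 of 31. TRAV11, TRAV5N-4, TRAV4N-4 and TRAV7N-6 were also never matched. Over the other names the match was 92.03% of 4214 cells (91.2 to 92.8%) and 94.95% of 1962 cells (93.9 to 95.9%), and TRAV12-2 was matched in 96.9% and 98.2%. A few names made up the beta mismatches. In cells of the joint entry TRBV12-2+TRBV13-2, the leading gene was Trbv13-2 in 432 of 433 pBIC cells and 254 of 257 pBIC10 cells. With the joint entry read as TRBV13-2, the beta match was 97.2% and 93.5%, and TRBV13-2 would lead TRBV use in both mice, with 11.4% of pBIC and 10.1% of pBIC10 clonotypes.

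TRBV10 was another exception. Cells called TRBV10 held 0 UMIs of Trbv10 in both mice, and their leading gene was Trbv4 in 131 of 141 pBIC cells (92.9%) and 153 of 158 pBIC10 cells (96.8%), a name that the TCR tables do not use. TRBV5 cells often had no single leading V gene: 71.0% and 69.1% had one, against 97.7% and 96.1% of all cells with 1 beta chain. Where they had one, it was Trbv5 in 187 of 218 pBIC cells (85.8%) and 108 of 141 pBIC10 cells (76.6%). TRBV12-1, TRBV12-2 and TRBV13-1 calls were matched in 96.6% to 100% of cells, and TRBV3 calls in 99.7% in each mouse.

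Few rearrangements were common to both mice. In alpha chains, 35 combinations of V, J and CDR3 protein sequence were found in both, which is 2.06% of the distinct pBIC chains and 2.12% of those of pBIC10, and 18 at the nucleotide level. In beta chains there were 12 (0.684% and 0.715%), and 2 had the same nucleotide sequence, shown here with capitals as for the largest clonotypes.
TRBV12-1 and TRBJ2-7 in both mice: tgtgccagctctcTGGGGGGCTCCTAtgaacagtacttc
TRBV16 and TRBJ1-1 in both mice: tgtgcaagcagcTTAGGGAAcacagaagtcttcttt
No pair of alpha and beta chain was shared. Of the 12 beta protein sequences, 8 used the TRBJ2 cluster, which supplied 63.2% of all pBIC and 60.9% of all pBIC10 beta chains. TRBV1 was used by 3, against 5.98% of all beta-bearing clonotypes in pBIC and 5.53% in pBIC10. The largest clonotype among them was a TRBV5 and TRBJ2-7 clonotype of 45 pBIC cells, with 3 cells in pBIC10 and another nucleotide sequence there.

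The genes that build and read the receptor were taken from a list and summed over TCR-bearing barcodes. Of 17 genes of the TCR complex and its signalling, 9 were at least 1.5-fold higher in pBIC, against 24.2% of 14501 genes tested, and 0 were higher in pBIC10, against 17.0%. The median log2 ratio of pBIC10 to pBIC was -0.75 for the list and -0.16 for all genes. Cd5, a brake on TCR signalling, had 189 CPM in the pBIC sum against 60.3 in that of pBIC10. Lck, the first kinase of the pathway, had 600 and 312 CPM, and Ptprc (CD45) 1146 and 545 CPM. The chains of the complex were closer, and none was called: Trac had 238 and 204 CPM, Trbc2 had 202 and 181 CPM, and Cd3d had 996 and 908 CPM. Cd3e had 1401 and 1040 CPM, Cd3g 1100 and 799 CPM, and Cd247 232 and 169 CPM. Trbc1 went the other way, with 87.8 and 100 CPM. In sums of this kind, fewer cells with a transcript and less of it per cell cannot be told apart. Of 11 recombination genes, Rag1 and Rag2, whose products cut the segments, had 0 UMIs in both mice, and Dntt, which adds bases to the joint, had 0 in pBIC and 3 in pBIC10. Of the 7 with at least 20 UMIs, 3 were higher in pBIC (Xrcc4, Lig4 and Prkdc) and 1 in pBIC10 (Nhej1), 3 being between. The Nhej1 call rested on 23 UMIs in pBIC and 20 in pBIC10. Its values of 0.299 CPM (0.190 to 0.449) and 0.476 CPM (0.290 to 0.734) had overlapping intervals.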

How the data were processed

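The authors deposited UMI counts per gene and barcode and, for the TCR libraries, productive contigs with counts of reads and UMIs and a table of clonotypes with their frequency in cells, also as a fraction. Per the submitters' processing notes, Cell Ranger 3.0.1 and the build GRCm39 were used, while per the file headers the matrices come from cellranger 5.0.1; the V(D)J reference is not given in the sources used here. Contigs with a clonotype were used. Each clonotype consensus chain counted once with its commonest V, J and CDR3. The deposited fraction was not used in any result. Shares have Clopper-Pearson 95% intervals, and sums of counts Poisson ones. Intervals of the effective number are linearised over clonotypes. The binomial intervals and those of the effective number were tested on simulated TRBV use by clonotype. Poisson intervals and those of the effective number by cell were not tested in this way. For the gates, barcodes needed 200 or more genes and less than 10% of UMIs from mitochondrial genes. No doublet caller was run. Instead, barcodes with more than 1 beta or 2 alpha chains were left out in an alternative.

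The named segments are, per locus, the 5 leading by clonotype, the 2 highest and 2 lowest per mouse by ratio of cell to clonotype share, the 3 most shifted each way between mice and between CD8 and CD4 gates, those of the 3 largest clonotypes of each mouse and the invariant pairs. Other segments in the text were named after their values were seen. The segments, lists and rules were chosen with earlier results of these data known. Python 3.11.15, numpy 2.4.6, scipy 1.17.1, pandas 2.3.3 and matplotlib 3.10.9 were used. A further gene of the naive T-cell list is not reported here.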

Additional observations from a re-analysis of the deposited data

Results flagged for a closer look

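The share of the TRBJ2 cluster among beta chains differed between the CD8 and CD4 gates in opposite directions in the mice, which is why it is listed. The CD8 gate minus the CD4 gate was 10.7 points in pBIC, where the shares were 64.9% (62.4 to 67.4%) and 54.2% (48.9 to 59.5%). It was -5.05 points in pBIC10, where 60.01% (57.4 to 62.6%) and 65.1% (57.3 to 72.3%) had overlapping intervals. The mean alpha CDR3 length also went opposite ways, with a CD8 minus CD4 difference of 0.0978 amino acids in pBIC (-0.0578 to 0.253) and -0.0948 in pBIC10 (-0.308 to 0.118). Neither difference between the mice was tested.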

How the results depend on the processing

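Of 321 recomputed values of the main results, 290 stayed within the counting interval, or within 1.5-fold for counts of segments, and 0 reversed. Only differences, correlations and log2 ratios with an interval that left out 0 could be labelled as reversed, so most values could not be. With the top contig per cell and chain, the TRAV match to the leading gene was 73.3% in pBIC and 80.9% in pBIC10 and 0 TRBV segments were called between mice, against 1. Leaving out possible multiplets gave 0 TRBV calls, 0 TRAV11 with TRAJ18 clonotypes in pBIC10 and 5 TRAJ segments higher in the CD4 gate, against 3. Leaving out contigs under 3 UMIs gave 14 and 0 TRAV11 with TRAJ18 clonotypes, against 22 and 1, and 6 such TRAJ segments. Segments called between mice numbered 2 TRAV by subgroup; 6 TRAV, 1 TRAJ and 0 TRBV at 2-fold; and 6 TRAV and 0 TRBV with at least 50 clonotypes, against 16, 5 and 1. In clonotypes of 1 cell, 5 TRAV were higher in the CD8 and 4 in the CD4 gate, against 10 and 11, 1 TRBJ was higher in the CD8 gate, 8 TRAJ were called between mice, and the log2 ratio of TRAV12-2 was 2.18, against 1.58. Within the CD8 gate the log2 ratio of TRAV11 was -1.42, with an interval of -3.33 to 0.498 that includes 0, against -3.004 (-4.50 to -1.51). With cells thinned to 2000 UMIs, 7 TRAV and 1 TRBJ were higher in the CD4 gate. Where the leading V gene had at least 3 UMIs, matches were 92.4% and 87.8% for TRBV and 88.2% and 96.4% for TRAV. With the joint entry as TRBV13-2, chosen after seeing the data as were the Cd8a gate and leaving out the largest clonotype, the effective number of TRBV was 16.8 and 16.9 and the match 97.2% and 93.5%. The cause of these shifts was not tested, beyond the fewer clonotypes or stricter rule that each setting brings. No paired analysis was possible because each genotype had 1 mouse, which also left no replicate to leave out. The median alpha contig had 8 and 7 UMIs and the median beta contig 18 and 17, and what depth contributes to the alpha mismatches was not tested.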
